A study of Drosophila melanogaster with 4 samples.

Results

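Binding of dRING along chromosome arm 2L of Drosophila melanogaster was described from 346 regions of the series list that carried a ChIP-seq cluster in both replicates. They were chosen by overlap: a listed region on 2L counted when it shared at least 1 bp with an enriched cluster of replicate 1 and with an enriched cluster of replicate 2. The arm held 1258 listed regions, so 27.5% met the rule, and on all 6 chromosome arms 2100 of 7386 regions (28.4%) did. The presence of clusters chose the regions, so their being found in both libraries is a description and no result.

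Chromatin came from whole embryos of the wild-type strain Oregon-R, aged 14 to 16 h, fixed with 1.8% formaldehyde. The study made 2 ChIP libraries with the dRING antibody Q3200 and 2 input libraries, numbered in the labels like the ChIP replicates. All 4 share strain, genotype and stage. The labels do not say if the replicate chromatin was prepared from different collections of embryos, and differences between the libraries may therefore be technical. A whole embryo mixes all tissues, and the lists cannot show in which cells a region was bound. Each interval carries the authors' own score, which has no stated unit and ranks and describes intervals within its list. Depth is unknown, since the lists give intervals and not counts.

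dRING, encoded by Sex combs extra, belongs to Polycomb repressive complex 1, where its RING finger acts as the ligase that attaches ubiquitin to histone H2A. In flies, Polycomb complexes are recruited by short DNA stretches called Polycomb response elements, and from there a repressive methyl mark on histone H3 can spread over a wider domain, where the chromodomain of Polycomb, another subunit of the complex, recognises it. Polycomb complexes in the embryo are known for keeping developmental regulators silent outside the cells that use them. Arm 2L carries several such regulators, among them the Wnt ligand gene wg, the forkhead genes slp1 and slp2, the zinc finger genes salm and odd, the homeobox genes cad and prd, and the eye development genes eya and dac. The gene table at hand is of release 6 and the lists are in FlyBase release 5, so regions are named by position and none was assigned to a gene.

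Replicated regions ran over nearly the whole arm but were unevenly spread. The first began 5.04 kb from the distal end, at 5044 to 10210, and the last ended at 22025850, leaving 986 kb at the centromere side of the 23.0 Mb arm with none. Together they covered 1.33 Mb, or 5.77% of the arm, at 15.0 regions per Mb. In the 23 full windows of 1 Mb, the number of regions ranged from 2 to 25 with a median of 15, and the bases they covered ranged from 7.78 to 137 kb with a median of 52.5 kb.

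The distal part of the arm was the more densely occupied. The first 10 Mb held 191 replicated regions (19.1 per Mb), the next 10 Mb held 133 (13.3 per Mb), and the remaining stretch held 22 (7.31 per Mb). All listed regions together thinned in the same order, from 65.6 to 49.0 and 37.2 per Mb. The share of listed regions that met the rule was 29.1%, 27.1% and 19.6% in these stretches. The 21 regions of 10 kb or longer (6.07% of the replicated regions of the arm) were 13 of the 191, 7 of the 133 and 1 of the 22. Regions with a series score of 2 or more (3.18% on the arm) were 4 of the 191, 5 of the 133 and 2 of the 22. These counts are small and come from unlike numbers of regions, so no trend is read from them.

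Number and covered bases were not the same thing. The sixth window, from 5 to 6 Mb, held the most regions, 25 of its 98 listed ones (25.5%), which covered 94.0 kb. The fourth window, from 3 to 4 Mb, held 18 of 64 listed regions (28.1%) but covered 137 kb, the most of any window. It contained 5 of the long regions. The eighteenth window, from 17 to 18 Mb, held 4 of 12 listed regions (33.3%), covering 10.7 kb. In the 1 Mb window from 22 to 23 Mb, 2 regions covered 7.78 kb. After the last replicated region, 6 listed regions remained: 1 carried a cluster of replicate 1, 2 carried a cluster of replicate 2, and 3 carried none.

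**Figure D1:**
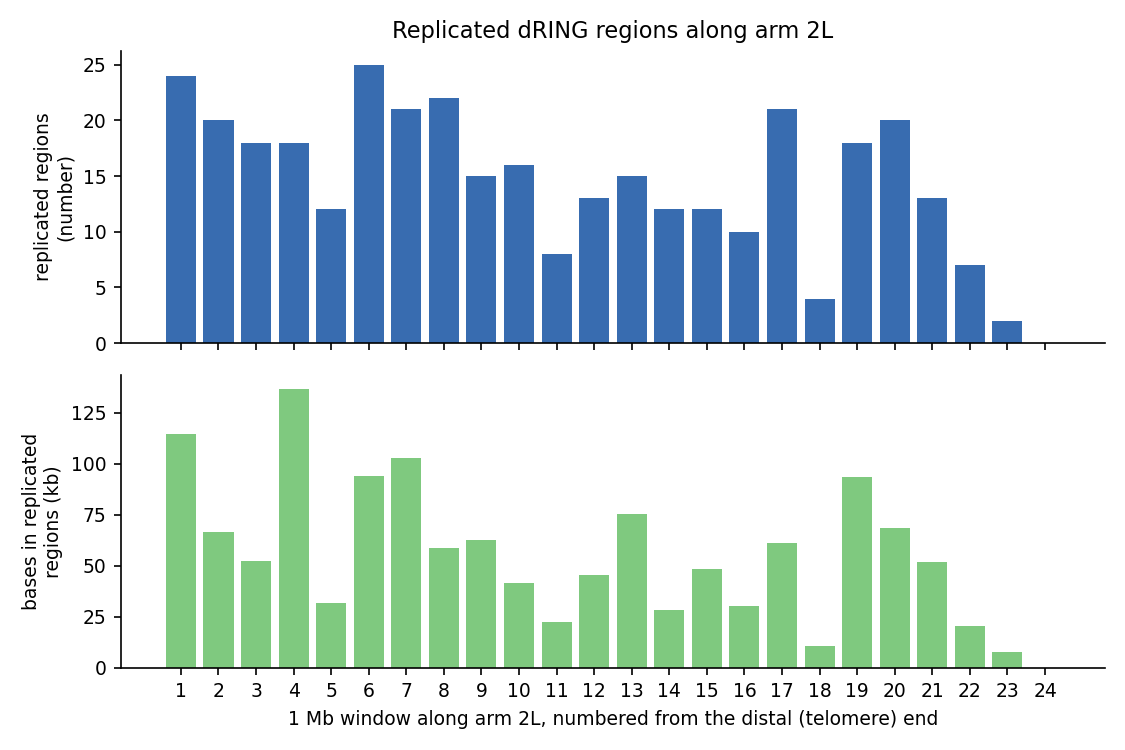
Number of replicated dRING regions (upper bars) and bases they cover in kb (lower bars) in each 1 Mb window of arm 2L, with the last window incomplete. The count is highest in window 6 with 25 of 98 listed regions, and the covered bases are highest in window 4 with 137 kb. Windows 18 and 23 hold 4 of 12 and 2 of 8 listed regions.

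Most replicated regions were narrow. Lengths ran from 1704 to 31878 bp with a median of 2484 bp (quartiles 2103 and 3912 bp), and the lowest decile ended at 2000 bp, so lengths piled up just above 2 kb. Of the 346 regions, 256 (74.0%) were 2 to 5 kb long and 34 were shorter than 2 kb. The 35 regions of 5 to 10 kb and the 21 of 10 kb or longer made up 16.9% and 25.1% of the covered bases. A small number of wide regions therefore held a large part of the covered chromatin. The shortest region was longer than the shortest cluster of either library, which was 1301 bp, and the series list itself began at 1001 bp.

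Median series scores were higher in the longer classes, but the highest single series scores were not found there. The median series score was 0.342 in the class under 2 kb and 0.601 in that of 2 to 5 kb. It reached 0.811 in the class of 5 to 10 kb and 1.08 in the longest class. Across the 346 regions Spearman's rho of length and score was 0.48, given as a description of places that share the same libraries. The highest score, however, was 3.19 among regions of 2 to 5 kb, 2.19 among those of 5 to 10 kb and 1.96 among the longest class. The region with 1.96 was at 18932559 to 18945792. Clusters scored up to 1.96 in replicate 1 and 2.51 in replicate 2 within 18928216 to 18948724, which holds it and 2 close neighbours. Over the 10 highest series scores, cluster scores ran from 1.17 to 2.94 in replicate 1 and from 2.32 to 3.51 in replicate 2. Cluster scores in or beside this long region thus lay within the range of the strongest sites. All 11 regions with a score of 2 or more were between 2 and 10 kb, 9 of them under 5 kb. The 10 strongest and the 10 longest regions had no member in common.

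**Figure D2:**
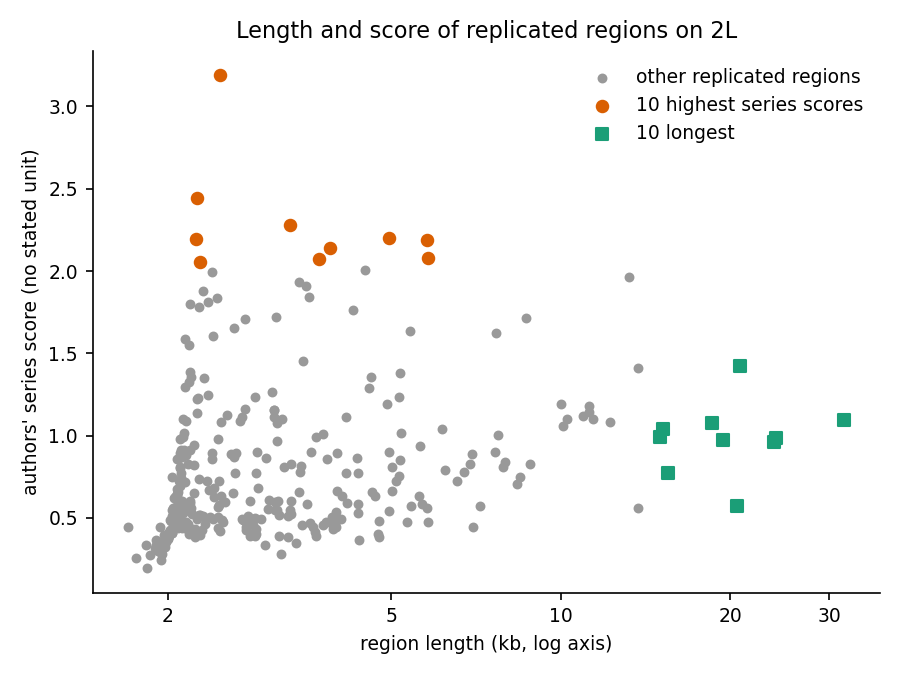
Length in kb (log axis) against the authors' series score for the 346 replicated regions of 2L. The 10 highest scores (orange) belong to regions of 2.25 to 5.82 kb, and the 10 longest regions (green squares, 15.0 to 31.9 kb) have scores of 0.570 to 1.42.

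The highest series score among the replicated regions was at a narrow site, 10003365 to 10005847, 2.48 kb long, with a score of 3.19. Its cluster scored 2.94 in replicate 1 and 3.51 in replicate 2, the highest among the replicated regions in each library. The cluster ran from 10003409 to 10005831 in replicate 1 and from 10003379 to 10005837 in replicate 2, so the libraries placed its edges within 30 bp and 6 bp of each other. Its nearest replicated neighbour stood 17.8 kb away.

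The next sites were also compact. The region at 11812358 to 11814616 (2.26 kb, series score 2.44) scored 2.15 in replicate 1 and 2.80 in replicate 2, with a neighbour 2.40 kb away. The region at 6087176 to 6090478 (3.30 kb, 2.28) scored 1.97 and 2.66 and had neighbours on both sides within 3.06 kb. These sites had close company, whereas the one at 12026217 to 12028461 (2.25 kb, 2.19) stood 12.7 kb from its nearest neighbour and scored 2.02 and 2.41. The libraries marked nearly the same stretch at each of these sites, covering 97.7 to 99.7% of the region.

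At 21826991 to 21831946 the libraries differed in width, and replicate 2 scored higher, as at each of the 10 strongest sites. This 4.96 kb region, with a series score of 2.20, was the first replicated one after a gap of 575 kb. Replicate 1 covered 97.9% of it with a score of 2.12, and replicate 2 covered 58.7% with a score of 2.94. The replicate 2 cluster, from 21827218 to 21830127, was thus the narrower and the higher scoring, and it ranked second in that library among the replicated regions.

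A pair of the strongest regions was wider than 5 kb. The region at 16531844 to 16537637 (5.79 kb, series score 2.19) scored 1.92 in replicate 1 and 2.49 in replicate 2, and more than 99% of it was covered in each, at 99.2 and 99.3%. The region at 466812 to 472629 (5.82 kb, 2.08) scored 1.89 and 2.32 and was covered to 98.9 and 99.9%. Both had a replicated neighbour within 6 kb, at 4.80 and 5.51 kb. Of the 11 regions scoring 2 or more, only these 2 reached 5 kb.

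The remaining 3 of the 10 were more isolated. The region at 20713571 to 20717466 (3.90 kb, series score 2.14) scored 1.84 in replicate 1 and 2.49 in replicate 2 and lay 49.4 kb from its neighbour. The region at 2160412 to 2164127 (3.72 kb, 2.07) scored 1.88 and 2.62 and lay 27.5 kb from its neighbour. The region at 13289744 to 13292023 (2.28 kb, 2.06) stood alone, with 220 kb to the nearest replicated region, and its scores were 1.17 in replicate 1 and 2.82 in replicate 2. It was thus the third highest of the replicated regions in replicate 2 and only the 68th in replicate 1. Each of the 10 strongest sites consisted of 1 cluster per library, and the replicate 2 score exceeded that of replicate 1 in every case, by 0.383 to 1.65.

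The longest regions were stretches of 15.0 to 31.9 kb that together held 205 kb, or 15.4% of the bases in replicated regions. Their series scores lay between 0.570 and 1.42. At all 10 the series score was below the highest cluster score of both libraries, whereas at the 10 strongest sites it lay between them. Among all replicated regions it was below both at 184 and between them at 162. The median rank of the 10 longest was 81.5 by series score. By highest cluster score it was 44.5 in replicate 1 and 52.5 in replicate 2. The libraries divided the 10 longest regions differently: replicate 1 marked them with 21 clusters covering 75.9 to 98.8% of a region, and replicate 2 with 33 clusters covering 35.9 to 68.3%. None of these 10, the shortest of which was 15.0 kb, was among the 10 highest of the replicated regions in either library.

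The longest, at 3817239 to 3849116 (31.9 kb, series score 1.10), had 4 clusters in replicate 1 and 3 in replicate 2. Both libraries placed the strongest cluster in its middle, from 3830644 to 3843543 with a score of 1.49 in replicate 1 and from 3831296 to 3840668 with 1.48 in replicate 2. The second strongest lay distal to it in both, at 3820917 to 3830054 (1.33) and at 3824063 to 3828008 (1.31). On the centromere side the libraries had a weaker cluster, of 0.786 and 0.666. The proximal flank was empty of replicated regions for 483 kb, the third widest gap of the arm.

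A group of 3 of the 10 longest regions lay between 3530725 and 3620441, with a shorter replicated region, at 3597963 to 3600717, before the last. The first, at 3530725 to 3551570 (20.8 kb, series score 1.42), was the highest scoring of the 10 longest and carried a 15.8 kb cluster scored 1.65 in replicate 1 and a 10.1 kb cluster scored 1.91 in replicate 2. The second, at 3569297 to 3584818 (15.5 kb, 0.770), had scores up to 0.876 in replicate 1 and 1.04 in replicate 2. The third, at 3601896 to 3620441 (18.5 kb, 1.08), had scores up to 1.41 and 1.35. Together with the 31.9 kb region these lie in the fourth window and account for its large covered length.

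Scores inside a long region were uneven. At 6527750 to 6551666 (23.9 kb, series score 0.960) each library had 5 clusters, and in both the third of them was the highest, from 6534582 to 6537975 with 1.63 in replicate 1 and from 6534931 to 6537502 with 1.98 in replicate 2. The other clusters there scored from 0.588 to 1.08 in replicate 1 and from 0.618 to 1.09 in replicate 2. At 8819122 to 8843282 (24.2 kb, 0.987) a 13.7 kb cluster scored 1.37 in replicate 1, and inside it a 7.66 kb cluster scored 1.59 in replicate 2. The remaining 4 replicate 2 clusters there scored from 0.525 to 0.676. In these regions the strongest clusters of both libraries overlapped. At 5397307 to 5412501 (15.2 kb, 1.04) replicate 2 had a single 5.46 kb cluster scored 1.65, inside a 12.7 kb cluster of replicate 1 scored 1.23. At 18877056 to 18892046 (15.0 kb, 0.993) the strongest replicate 2 cluster, scored 1.52, likewise lay inside the only replicate 1 cluster, scored 1.17.

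A pair of long regions had no single strong part in replicate 2. At 12672178 to 12692723 (20.5 kb, series score 0.570) replicate 1 had 1 cluster scored 0.727, and replicate 2 had 5 clusters scored from 0.579 to 0.737 with an unmarked stretch between 12679516 and 12685924. At 20766898 to 20786287 (19.4 kb, 0.973) replicate 1 had 1 cluster of 19.1 kb scored 1.04, while replicate 2 had its higher clusters at the ends, scored 1.33 and 1.23, and 2 lower ones between them, scored 0.556 and 0.467.

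**Figure D3:**
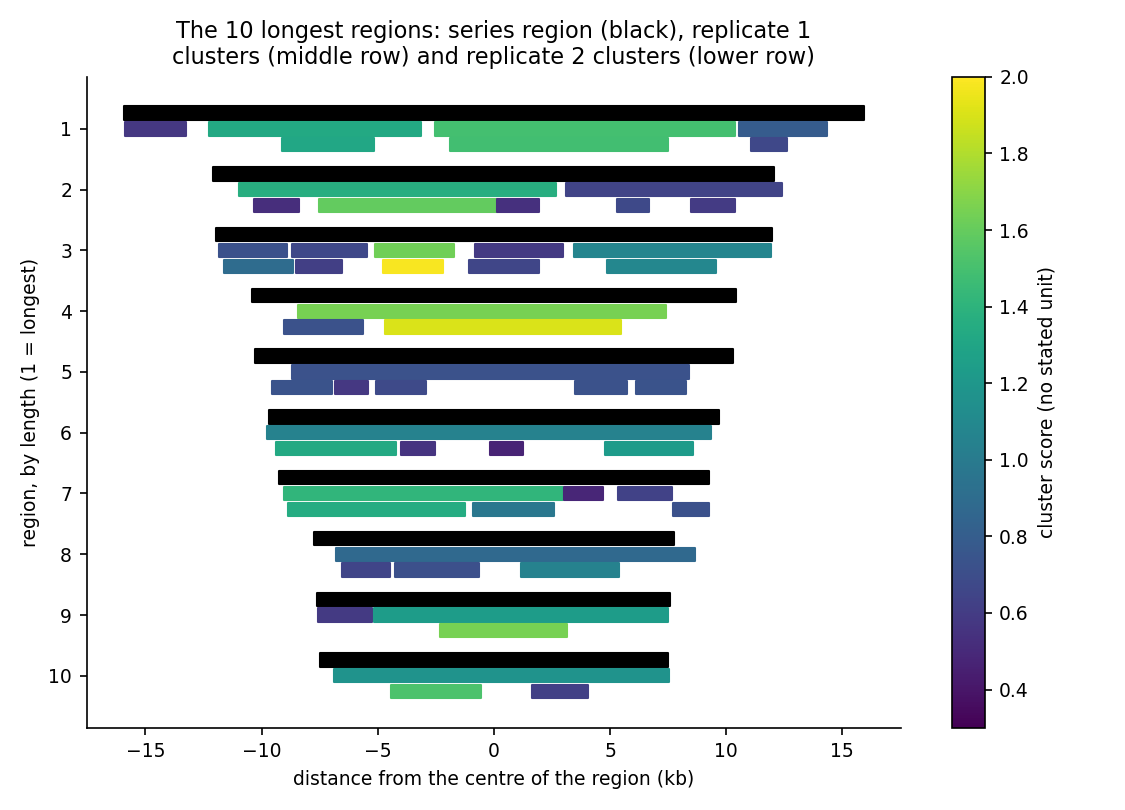
The 10 longest replicated regions of 2L, drawn to scale by distance in kb from the centre of each region, with the series region in black, replicate 1 clusters in the middle row and replicate 2 clusters in the lower row, coloured by score. Replicate 1 fills 75.9 to 98.8% of each region and replicate 2 fills 35.9 to 68.3% in more pieces, 33 against 21 in all.

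Cover by the libraries was also set side by side over all length classes. Among the 21 longest regions, of at least 10 kb, replicate 1 covered 91.9% ± 6.91 and replicate 2 covered 59.0% ± 13.4 (mean ± SD over regions), with the wider cover in replicate 1 at all 21. In the 35 regions of 5 to 10 kb the means were 84.1% ± 15.0 and 66.5% ± 21.0. In the 256 regions of 2 to 5 kb they were 84.9% ± 16.2 and 84.0% ± 18.3, and replicate 1 covered more in 117. In the 34 regions under 2 kb they were 83.7% ± 9.92 and 84.6% ± 10.7, and replicate 1 covered more in 16. The means of the libraries thus lay farther apart in the longer classes, which is given without a test. Neither list holds a cluster under 1301 bp, which limits how finely any region can be covered.

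Spacing between neighbouring replicated regions spanned a wide range. The 345 gaps ran from 4 bp to 578 kb, with a median of 26.9 kb and quartiles of 8.74 and 74.4 kb. Of these, 94 were under 10 kb, and 69 were 100 kb or more. The 69 wide gaps took up 13.5 Mb, or 58.7% of the arm. A replicated region had its nearest neighbour at a median of 12.7 kb, and 19 regions had none within 100 kb.

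The 3 widest gaps were not bare of listed regions. The widest, from 17561727 to 18140125 (578 kb), held 4 listed regions, of which 2 carried no cluster of either library. The next, from 21251962 to 21826990 (575 kb), held 21 listed regions, 5 with a cluster of replicate 1, 1 with a cluster of replicate 2 and 15 with neither. The third, from 3849117 to 4332285 (483 kb), held 14, 6 with replicate 1, 1 with replicate 2 and 7 with neither. The second gap ended at the strong region that starts at 21826991, and the third began where the longest region of the arm ends.

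**Figure D4:**
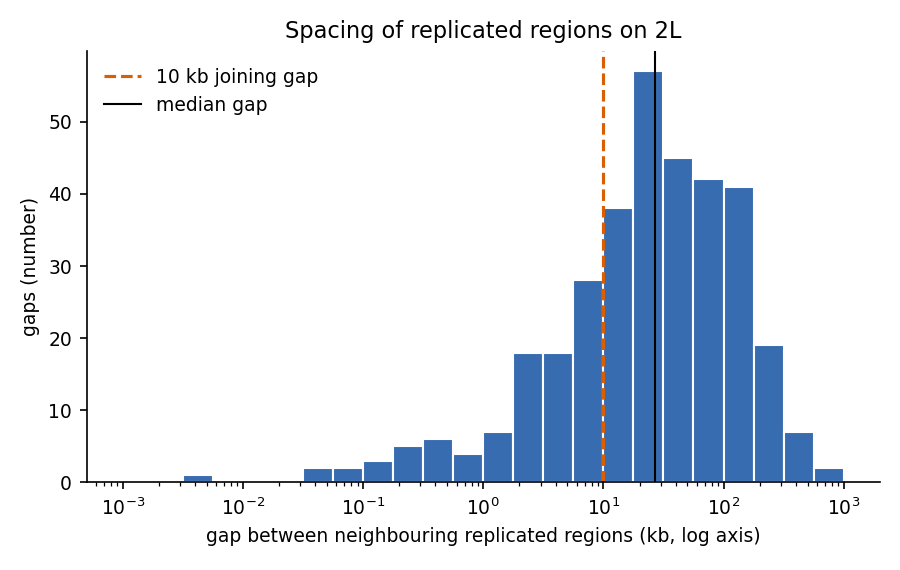
Distribution of the 345 gaps between neighbouring replicated regions of 2L, in kb on a log axis, with the median of 26.9 kb (black line) and the 10 kb joining gap (dashed). Gaps under 10 kb number 94 and gaps of 100 kb or more number 69.

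At the short end, 23 gaps were under 1 kb, and 43 regions had a neighbour that close. In 21 of these 23 gaps no cluster of either library ran across, so the break between the neighbours was present in both lists as well. The gap of 4 bp between 5456604 to 5467556 and 5467561 to 5470717 was bridged by a cluster of replicate 1. The gap of 61 bp between 18932559 to 18945792 and 18945854 to 18948724 was bridged by a cluster of replicate 2. None was bridged in both.

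Regions less than 10 kb apart were joined into domains to describe how they group. The 346 regions formed 252 domains, of which 188 were single regions. The other 64 held 158 regions and 680 kb of covered bases, with 45 of 2 regions, 10 of 3, 7 of 4 and 2 of 5. Grouping was thus mostly in pairs. Ranked by covered bases, the first 5 domains accounted for 11.1% of the bases in replicated regions.

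The largest domain, at 3804467 to 3849116 (44.7 kb), joined the longest region to 1 neighbour and had 35.9 kb covered. Clusters covered 71.1% of its span in replicate 1 and 38.2% in replicate 2. The second, at 8812803 to 8856016 (43.2 kb), held 4 regions covering 34.1 kb, with scores up to 1.37 in replicate 1 and 1.59 in replicate 2. The third, at 18864039 to 18901060 (37.0 kb), held 3 regions covering 27.4 kb. In each of these a long region was accompanied by shorter ones.

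The fourth domain, at 6812153 to 6838239, was the most continuous of the 5. Its 2 regions, of 13.7 and 12.2 kb, were separated by 148 bp and covered 25.9 kb of the 26.1 kb span. Clusters covered 92.0% of the span in replicate 1 and 64.3% in replicate 2, with highest scores of 1.57 and 2.23. The fifth, at 1943658 to 1975261 (31.6 kb), held 4 regions covering 24.2 kb with highest scores of 1.39 and 1.49. In all 5 domains the part of the span under clusters was greater in replicate 1.

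The choice of gap decided which domain was the largest. With a gap under 5 kb it was the 31.9 kb region at 3817239 to 3849116 alone. With a gap under 20 kb it was a stretch of 7 regions at 3530725 to 3687062, which spanned 156 kb and had 76.2 kb covered. It included the group of 3 of the 10 longest regions there and a 10.3 kb region at 3655084 to 3665355.

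Edges were closely placed where each library had a single cluster, as in 303 of the 346 regions (87.6%). Their distal edges differed between the libraries by a median of 101 bp (quartiles 28 and 278 bp), and their proximal edges by a median of 80 bp (26.5 and 274 bp). Differences over 1 kb occurred at 25 distal and 19 proximal edges. Both libraries covered at least 90% of the region in 112 of the 346. Replicate 1 covered less than 50% in 12 regions and replicate 2 in 30.

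Scores of the libraries ordered the regions in a similar way. The highest cluster score per region ran from 0.191 to 2.94 in replicate 1 with a median of 0.647, and from 0.278 to 3.51 in replicate 2 with a median of 0.740. Over the 346 regions the rank correlation (Spearman's rho) was 0.77 and the linear one (Pearson's r) 0.88, given without a test because the regions share the same 2 libraries. Replicate 2 gave the higher score in 253 regions (73.1%), against 76.6% of the regions found in both libraries on all arms. The difference of replicate 2 minus replicate 1 had a median of 0.117 (quartiles -0.011 and 0.298). It was 0.0752 in the lower-scoring 173 regions and 0.254 in the higher-scoring 173. How scores compare between the lists is unknown, and these differences cannot be read as more or less binding.

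Regions with the largest differences in each direction are named here because of their values. The 6 largest differences, from 0.866 to 1.65, were at regions of 2.15 to 2.75 kb with scores of 0.926 to 1.31 in replicate 1 and 1.79 to 2.82 in replicate 2. The median length of all replicated regions was 2484 bp. Other differences lay close below, such as 0.824 at 4886688 to 4888878, so the 6 are not a separate group. After the region at 13289744 to 13292023, the largest was at 18318940 to 18321211, with 1.13 in replicate 1 and 2.40 in replicate 2. The region at 2453178 to 2455925 had 1.31 and 2.46, and the region at 8983868 to 8986017 had 1.06 and 2.10. In the opposite direction the most distal region of the arm, at 5044 to 10210, had 1.43 in replicate 1 and 0.988 in replicate 2. The region at 5467561 to 5470717 had a highest score of 1.18 in replicate 1 and 0.619 in replicate 2, but the 1.18 came from the cluster that runs across the 4 bp gap from the neighbouring region. The replicate 1 cluster with the most overlap there scored 0.595, which is below the replicate 2 score.

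**Figure D5:**
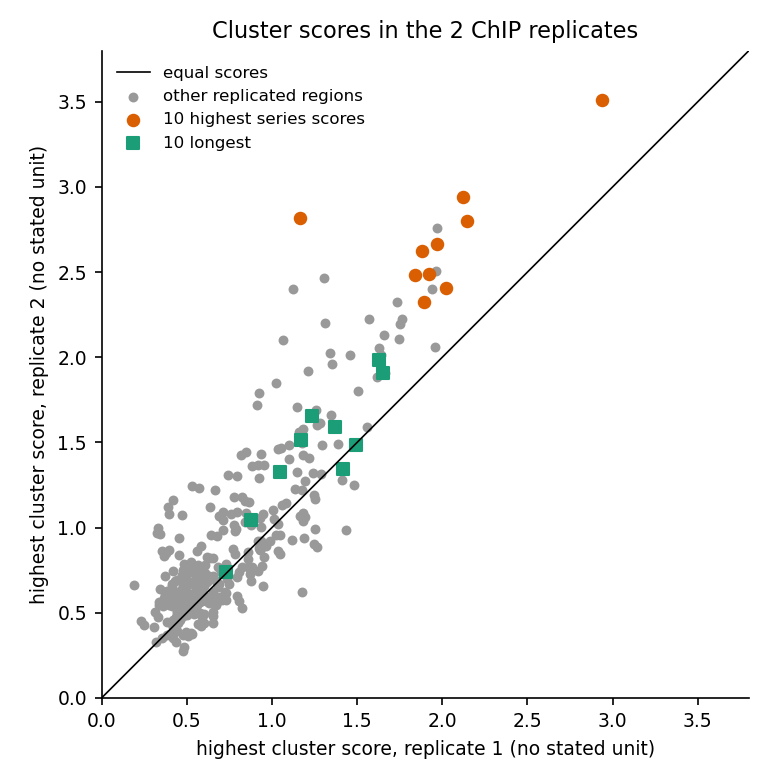
Highest cluster score of replicate 1 against that of replicate 2 for the 346 replicated regions of 2L, with the line of equal scores. Replicate 2 is higher in 253 regions, the 10 highest series scores (orange) all lie above the line, and the orange point at 1.17 and 2.82 is the region at 13289744 to 13292023.

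Counted in bases, the limit of the rule was not met by slivers of overlap. With no cluster under 1301 bp, a cluster lying wholly inside a region cannot give a sliver. The members with the fewest overlapped bases were at 18945854 to 18948724, of which a replicate 2 cluster covered 1208 bp (42.1%), and at 5509993 to 5512273, of which a replicate 1 cluster covered 1217 bp (53.4%). As a share of the region, cover went lower at other members, down to 29.9% in replicate 1 and 24.4% in replicate 2. Just outside the rule, the region at 14456218 to 14459246 had a replicate 2 cluster and missed the nearest replicate 1 cluster by 61 bp, and the region at 5302613 to 5304409 missed one by 117 bp. Their series scores were 0.338 and 0.182, against 0.435 and 0.394 for the pair just inside.

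Among the other 912 listed regions of the arm, 205 carried a cluster of replicate 1 alone, 92 of replicate 2 alone and 615 of neither. The replicated regions held 48.4% of the listed bases. Of the clusters, 380 of 597 in replicate 1 (63.7%) and 391 of 492 in replicate 2 (79.5%) touched a replicated region, and every cluster that overlapped the other library touched such a region. The reverse did not hold, since 360 clusters of replicate 1 and 385 of replicate 2 overlapped a cluster of the other library. At 1183737 to 1187118, for example, the replicate 1 cluster ended at 1185218 and the replicate 2 cluster began at 1185276. A replicated region was therefore not always marked at the same place. The strongest cluster outside them was at 3160979 to 3162418 in replicate 1, with a score of 0.794, and at 8689972 to 8692129 in replicate 2, with 1.11. Both lay under the upper quartile of the replicated regions in their own library, 1.02 and 1.16.

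The highest series score of the whole arm was not at a replicated region. It was 3.32, at 21524547 to 21525565, a region of 1019 bp inside the second widest gap, and neither library had a cluster within 214 kb. A further 3 regions without a cluster scored above 2: 3.05 at 16516972 to 16517973, the same 3.05 at 19672995 to 19673995, and 2.90 at 4661836 to 4662836. These 4 regions were 1001 to 1019 bp long, shorter than any cluster of either library. The value 3.05 occurred at 9 regions of the series list, as did 2.90, and 3.32 occurred at 2. Recurring scores were not particular to these 4 regions. Of the 615 regions of the arm without a cluster, 338 (55.0%) had a score that recurs in the series list. Of the 346 replicated regions, 47 (13.6%) did. Apart from the 4 regions above, every region of the arm that scored 2 or more was replicated.

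Values for the other arms are given beside those of 2L, without a test, since regions of an arm share their libraries and are no replicates. The density of 15.0 replicated regions per Mb compared with 14.8 on 3L, 16.7 on 2R, 18.8 on 3R, 22.2 on X and 11.1 on chromosome 4. Listed regions numbered 54.7 per Mb on 2L, 55.1 on 3L, 63.1 on 2R, 63.6 on 3R, 72.4 on X and 31.8 on chromosome 4. The share of them that met the rule was 27.5, 26.9, 26.4, 29.5, 30.7 and 34.9% in the same order. The median series score was 0.603 on 2L, against 0.619 to 0.857 on the others. A score of 2 or more was held by 3.18% of the replicated regions of 2L, by 5.73 to 9.84% on 2R, 3L, 3R and X, and by none of the 15 on chromosome 4. The median length of 2484 bp stood beside 2506 bp on 3L, 2547 bp on 2R, 2629 bp on X, 2706 bp on 3R and 3528 bp on chromosome 4. Regions of 10 kb or longer made up 6.07% on 2L, 3.01% on X, 3.02% on 3L, 5.10% on 2R, 7.44% on 3R and 13.3% of the 15 on chromosome 4. The widest gap was 578 kb on 2L, 298 kb on chromosome 4, 387 kb on 2R, 431 kb on 3L, 438 kb on 3R and 668 kb on X.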

How the data were processed

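Bowtie 0.12.7, a short-read aligner, is the tool listed per the submitters' processing notes, and the file headers name FlyBase release 5 as the build. Neither the region caller and its settings nor the combining of the replicates is given in the sources used here. The score was deposited by the authors without a scale. The labels number the input libraries like the ChIP replicates but do not say how inputs entered the lists. Inputs were not analysed here. Without read counts, depth and precision cannot be stated.

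Analysis of the 3 lists used Python 3.11.15, numpy 2.4.6, pandas 2.3.3 and scipy 1.17.1, and figures were made in matplotlib 3.10.9. Coordinates count from 1, and regions fall in a window by their centre. Where a library had several clusters in a region, its highest score was used. The members and lists were chosen with earlier results of these data known. Named regions are the 10 highest series scores, the 10 longest, the 5 domains with the most covered bases, the 3 widest gaps and the 2 regions on each side of the rule. Others named were chosen after their values were seen. No test was made, since 2 libraries of 1 group allow none over samples. Overlap, cover and joining were checked base by base on 20 simulated lists and were right in all 20. Alternatives were 50% overlap, clusters above the median score, each replicate alone, merging under 1 kb, gaps of 5 and 20 kb, the most overlapping cluster's score, and bases in place of regions. The planned gene lists and sequence were not analysed, because no genome or annotation of release 5 was used here.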

Additional observations from a re-analysis of the deposited data

How the results depend on the processing

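Of 15 recomputed values, 8 stayed within 1.5 times (counts) or within the exact 95% binomial interval (shares). Medians counted as kept only when they moved by less than 1 SD between the libraries, a narrow limit. The binomial interval takes regions as independent, which they are not, so it served only as a yardstick. The number of replicated regions was 312 with 50% overlap and 327 after merging. It was 157 with clusters above the median score, which by construction keeps fewer clusters. With only replicate 2 used it was 438, and with only replicate 1 used it was 551. Of these counts, 157 and 551 lay beyond 1.5 times. Domains numbered 284 and 209 with gaps of 5 and 20 kb, 304 with only replicate 2 used and 321 with only replicate 1 used. Taken from the shared clusters of a single library in place of series regions, the median length was 2118 to 2134 bp and the median gap 23.8 to 25.3 kb. The cause of these lower values was not tested. As a share of listed bases in place of regions, the replicated part of the arm was 48.4%, beside 27.5% of regions. These are unlike quantities, so their difference does not measure how stable the share of regions is. No paired analysis was possible because the result comes from no test and the inputs have no list of their own. Depth could not be assessed from interval lists.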
